A study of Mus musculus with 6 samples.

Results

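The genes described are 10 regulators of mTORC1, the growth-promoting kinase complex built around mTOR: the stress-induced inhibitors Ddit4 (REDD1), Ddit4l (REDD2), Sesn1, Sesn2 and Sesn3, the brake Tsc1 and Tsc2, the activating GTPase Rheb, and the kinase Mtor with its scaffold Rptor (raptor). They were picked by symbol from a table of 24421 genes. All 10 were listed, 9 had counts and passed the filter on low counts, and Ddit4l had none. The samples were Neuro2a cells, a mouse neuroblastoma line labelled wild type, 48 h after an adenovirus brought in either a control hairpin (ADV-shCtrl, n = 3) or a hairpin against Fam172a (ADV-shFam172a, n = 3). All samples of both groups therefore carried virus, and all came from a tumour line rather than from the neurons named in the series title. The labels do not state if samples of one group were infected separately, so p-values reflect the spread among these libraries alone, and that spread may be technical.

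Cells use mTORC1 to match protein synthesis and growth to nutrients, oxygen and growth factors. Rheb in its GTP-bound form switches the complex on, and the TSC1-TSC2 complex switches Rheb off. REDD1 acts through TSC2 when oxygen or energy is short, while sestrins act through GATOR complexes that relay amino acid signals at the lysosome. Most of this control runs through phosphorylation and binding of proteins, and protein was not analysed here.

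Depth, as the sum of gene counts, was 11250312 to 12820531 for the control libraries and 21690467 to 23409319 for the knockdown libraries, so the deeper libraries were all knockdown libraries. Fam172a itself stood at 18.6, 19.3 and 19.5 CPM (depth-scaled counts after TMM) with the control hairpin and at 9.22, 8.28 and 9.22 CPM with its own hairpin, 46.5% of the shCtrl mean. Rn45s, which is ribosomal RNA precursor, was likewise higher in the knockdown libraries (985 ± 177 against 492 ± 78.2 CPM, SD, n = 3), and its part in the results below was not tested. All 11 markers of sympathoadrenal neuroblasts were detected, with a summed level of 1983 to 2005 CPM in shCtrl and 2040 to 2069 CPM in shFam172a. Of the 11, 5 were called higher and 1 lower, or 54.5% against 36.1% of all genes tested. Among them were Th, the enzyme of catecholamine synthesis, at 9.28 ± 1.30 and 18.7 ± 1.05 CPM (adjusted p = 1.5e-10), and Elavl4, a neuronal RNA-binding protein, at 303 ± 3.74 and 214 ± 7.35 CPM (adjusted p = 2.7e-16). Markers of fibroblasts, macrophages, endothelium and epithelium summed to 21.2 to 21.7 and 20.9 to 23.8 CPM, 6 of 16 passed the filter, and the leukocyte marker Ptprc was at 0 in all libraries. Most of that sum was the endothelial marker Pecam1, at 12.6 ± 0.443 and 13.2 ± 0.330 CPM. The fibroblast marker Pdgfra followed at 4.61 ± 0.358 and 3.49 ± 0.563 CPM, and neither was called. Of the 6 that passed, the macrophage marker Cd68 was called higher, at 0.514 ± 0.249 and 1.02 ± 0.107 CPM (adjusted p = 0.048). The part of these markers in the results below was not tested. In bulk RNA such as this, fewer cells that express a gene and less RNA per cell cannot be told apart.

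The DNA just upstream of 3 members is shown because Ddit4 is a known target of hypoxia-inducible factor (HIF), whose core site is ACGTG or GCGTG, and because its neighbours in the pathway can be compared with it. The sequences are from RefSeq on GRCm38.p6, each written 5′ to 3′ on the strand of its gene, from 250 bases before the RefSeq start as far as no annotated exon reaches. Capitals mark ACGTG or GCGTG on either strand. The Ddit4 stretch is chr10:59951835-59952020 on the minus strand, that of Rptor chr11:119602655-119602904 on the plus strand, and that of Sesn2 chr4:132510502-132510706 on the minus strand.
Ddit4: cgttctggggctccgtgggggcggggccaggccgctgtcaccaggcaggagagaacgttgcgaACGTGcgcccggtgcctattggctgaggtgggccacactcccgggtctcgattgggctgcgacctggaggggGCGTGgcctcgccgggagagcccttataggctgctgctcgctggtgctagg
Rptor: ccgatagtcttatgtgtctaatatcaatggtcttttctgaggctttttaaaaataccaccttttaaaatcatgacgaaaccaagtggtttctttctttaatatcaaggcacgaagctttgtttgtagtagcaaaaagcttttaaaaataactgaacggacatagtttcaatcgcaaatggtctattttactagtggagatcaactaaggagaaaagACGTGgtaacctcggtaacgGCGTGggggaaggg
Sesn2: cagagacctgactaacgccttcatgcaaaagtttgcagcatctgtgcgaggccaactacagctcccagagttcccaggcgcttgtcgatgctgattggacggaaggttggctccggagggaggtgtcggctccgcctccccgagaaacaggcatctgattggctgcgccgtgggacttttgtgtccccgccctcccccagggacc

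The Ddit4 stretch held ACGTG at 187 bases and GCGTG at 115 bases before the start. Rptor held the same pair of letter strings at 34 and 14 bases, and Sesn2 held neither. Within the 250 bases before a start, 7 of the 10 members had at least one of these strings, as did 38.6% of 32851 RefSeq promoters of mouse genes. They were Ddit4, Tsc1 and Rptor, called higher below, Sesn1, Tsc2 and Rheb, called lower, and Ddit4l, which had no counts. The strings thus stood before members that differed in either direction. Any relation between the strings and the calls was not tested. ACGTG alone was in 16.6% of promoters and was found before Ddit4, Rptor and Rheb. In Rheb it was part of the palindrome CACGTG, 96 bases before the start, which 6.02% of promoters held. The string TGATGCAA, a composite site of the ATF4 and C/EBP families, and GTAAACA, a FOXO site, were found before no member and in 0.791% and 3.17% of promoters. TGACNNNGC, with N for any base, was also sought. It lay 36 bases before Sesn2, 247 and 103 before Rheb and 46 before Ddit4l, and in 10.2% of promoters. A match is a description of the letters and does not show binding.

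Ddit4 was the member that changed most. REDD1, its product, is a small protein that is made within hours of low oxygen or energy stress. Its level was 316, 308 and 306 CPM with the control hairpin and 563, 511 and 489 CPM with the Fam172a hairpin. Every knockdown library was thus above every control library, with no value between 316 and 489 CPM. The fold was 1.68, a log2 fold change of 0.75 ± 0.039 (SE) with a 95% interval of 0.67 to 0.83 (adjusted p = 2.9e-13, edgeR's quasi-likelihood test with Benjamini-Hochberg adjustment over 12820 genes). By p, Ddit4 ranked 92 among the genes tested, and its log2 fold change was higher than that of about 98.3% of them. Between 3449 and 12154 counts per library lay behind these values. With every library thinned to the depth of the smallest, the log2 fold change was 0.75 ± 0.041. The gene (ENSMUSG00000020108.4) spans bases 59949669 to 59951834 of chromosome 10 (GRCm38, minus strand), with 3 exons and no exon shared with another gene.

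Ddit4l, which encodes the related inhibitor REDD2, had 0 counts in all 6 libraries. Over the summed depth this allows a level of up to 0.0291 CPM, and in single libraries up to 0.129 to 0.266 CPM, by counting error only. Transcripts of the REDD pair in this line were therefore counted for Ddit4 alone. No fold change can be given for Ddit4l.

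**Figure D1:**
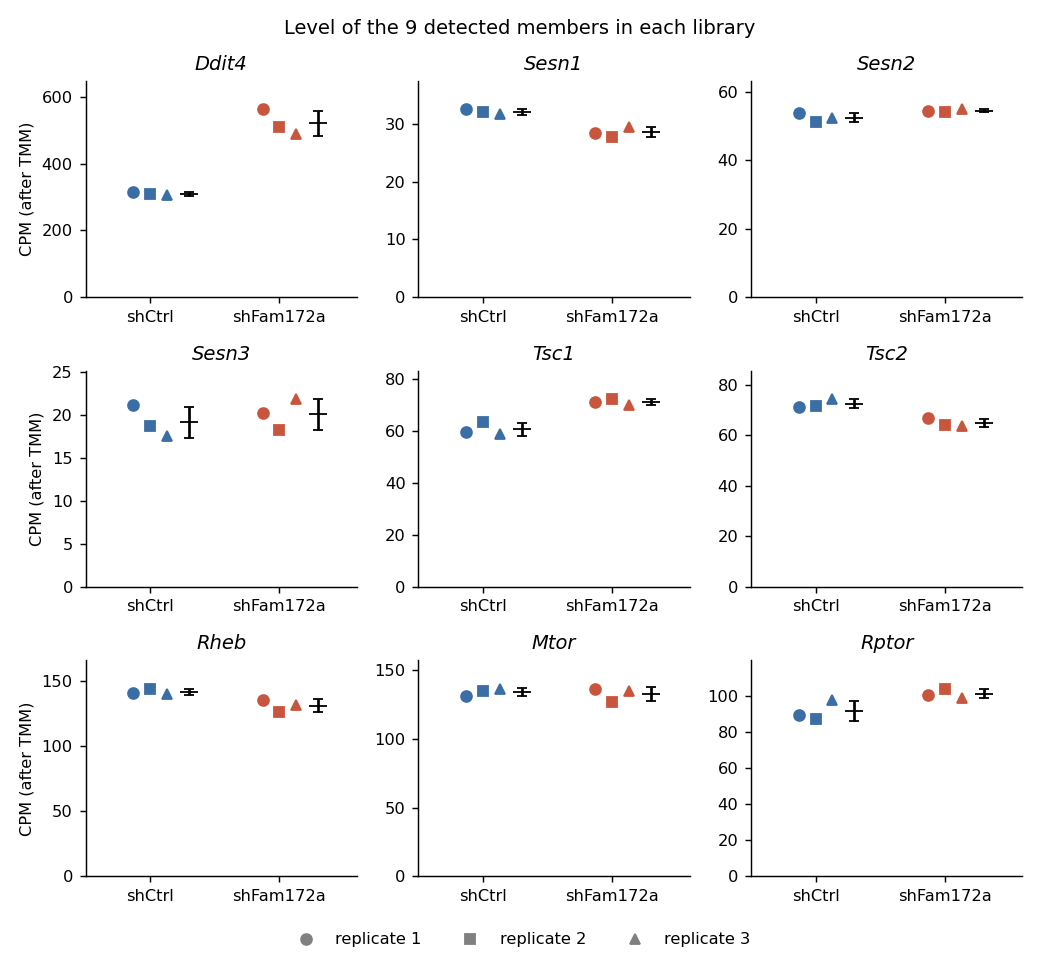
Level of each detected member in CPM after TMM scaling (y axes, from 0) in the 3 shCtrl and 3 shFam172a libraries. Points are libraries, and the bar beside them is the mean with its SD. Ddit4 is at 306 to 316 CPM in shCtrl and at 489 to 563 CPM in shFam172a, while the group means of the other 8 genes lie closer together for their level, the widest apart as a fold being those of Tsc1 at 60.7 and 71.1 CPM.

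None of the 3 sestrin genes was called higher. Sesn1, a p53- and FOXO-induced sestrin, was at 32.6, 32.0 and 31.7 CPM in shCtrl and at 28.5, 27.7 and 29.5 CPM in shFam172a. All knockdown libraries lay below all control libraries, but by little. Its log2 fold change was -0.17 ± 0.062 (adjusted p = 0.031). This call ended when any one of the shCtrl libraries, or replicate 1 or 2 of shFam172a, was left out (adjusted p = 0.060 to 0.12). With all libraries kept, it also ended in 3 other settings. These were DESeq2 (adjusted p = 0.11), no filter on low counts (adjusted p = 0.054) and thinned libraries (adjusted p = 0.06). The call thus depended on both the libraries and the method.

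Sesn2, the leucine-binding sestrin that is induced by ATF4, p53 and NRF2, was at 54.0, 51.3 and 52.3 CPM in shCtrl and at 54.5, 54.3 and 55.0 CPM in shFam172a. The groups did not overlap, yet their means lay 3.96% apart. The log2 fold change was 0.06 ± 0.048, with a 95% interval of -0.04 to 0.15 (adjusted p = 0.38), so a difference above 1.11-fold lay outside the interval. Sesn3, a FOXO-induced sestrin, was the lowest, at 21.1, 18.7 and 17.5 CPM against 20.2, 18.2 and 21.8 CPM. The ranges of the groups overlapped (0.07 ± 0.083, 95% interval -0.10 to 0.24, adjusted p = 0.55). With 198 to 486 counts per library, Sesn3 was also the least precise.

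The genes of the TSC complex differed in opposite directions. Tsc1 encodes hamartin, which stabilises the complex. It was at 59.7, 63.6 and 58.9 CPM in shCtrl and at 71.1, 72.4 and 69.9 CPM in shFam172a. The groups were separate, with the knockdown mean 17.1% higher (log2 fold change 0.23 ± 0.046, adjusted p = 1.3e-04). With offsets for transcript length and GC content, Tsc1 was at 0.14 (adjusted p = 0.012).

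Tsc2 encodes tuberin, the subunit that acts on Rheb and the one through which REDD1 works. It was at 71.2, 71.6 and 74.3 CPM in shCtrl and at 66.6, 64.1 and 63.6 CPM in shFam172a. Here every knockdown library was the lower one (log2 fold change -0.16 ± 0.044, adjusted p = 0.0041). Tsc2 shares 693 bp of exon sequence with Pkd1 on the opposite strand, and the strand setting of the counting is not given in the sources used here. Tbc1d7, the third subunit, was at 9.48 ± 1.43 and 8.35 ± 0.419 CPM (-0.19 ± 0.12, adjusted p = 0.21).

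A ratio of counts of 2 genes within a library does not depend on how libraries are scaled. There were 0.839, 0.888 and 0.793 Tsc1 counts per Tsc2 count with the control hairpin and 1.07, 1.13 and 1.10 with the Fam172a hairpin. Tsc2 thus had more raw counts than Tsc1 in every control library and fewer in every knockdown library. The genes differ in length, and this crossing is one of raw counts only. Per kilobase of merged exons, Tsc2 stood above Tsc1 in both groups. The means were 7.52 and 5.13 CPM per kilobase in shCtrl and 6.73 and 6.01 in shFam172a. The overlap of Tsc2 with Pkd1 bears on these counts too, and its part was not tested. The ratio was 1.31 times as high, and the exact permutation test gave p = 0.10, the smallest that 3 against 3 libraries allow (two-sided, 0.12 when adjusted over the 6 ratios computed). These ratios were chosen after the values were seen.

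Rheb, the GTPase that switches mTORC1 on, was at 140.4, 144 and 139.5 CPM in shCtrl and at 135, 126 and 132 CPM in shFam172a. The knockdown libraries were all below the control libraries, with a mean at 92.6% of the control mean. The log2 fold change was -0.11 ± 0.036 (adjusted p = 0.012), and the call ended without shCtrl replicate 2 (-0.10, adjusted p = 0.075) or without shFam172a replicate 2 (-0.08, adjusted p = 0.12). The homologue Rhebl1 was at 25.3 ± 2.72 and 24.6 ± 1.34 CPM (adjusted p = 0.73).

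Mtor, the kinase, was at 131, 135 and 136 CPM in shCtrl and at 136, 127 and 135 CPM in shFam172a. The groups overlapped. Its log2 fold change was -0.02 ± 0.036, with a 95% interval of -0.09 to 0.06 (adjusted p = 0.75), or 0.939- to 1.04-fold. With the offsets for transcript length and GC content, however, Mtor was lower at -0.14 (adjusted p = 0.0023).

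Rptor, the scaffold that brings substrates to the kinase, was at 89.3, 87.1 and 97.8 CPM in shCtrl and at 100.4, 103.9 and 98.9 CPM in shFam172a. Replicate 3 of shCtrl came close to the knockdown libraries, which were all higher. The log2 fold change was 0.15 ± 0.042 (adjusted p = 0.0054). It was 0.11 (adjusted p = 0.073) without shCtrl replicate 2 and 0.06 (adjusted p = 0.28) with the length and GC offsets. Rptor shares 84 bp with an antisense gene, Rptoros.

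Among the 9 members tested, 3 were higher (Ddit4, Tsc1 and Rptor), 3 lower (Sesn1, Tsc2 and Rheb) and 3 not called, at a median log2 fold change of 0.057. Of all 12820 genes, 36.1% were called, 17.5% higher and 18.6% lower, with a median of -3.0e-04. The groups did not overlap for 7 of the 9 members and for 46.0% of all genes. Only Ddit4 passed a fold of 1.5, as did 4.12% of all genes in either direction. Without shCtrl replicate 2, the number of members called was 3, namely Ddit4, Tsc1 and Tsc2.

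**Figure D2:**
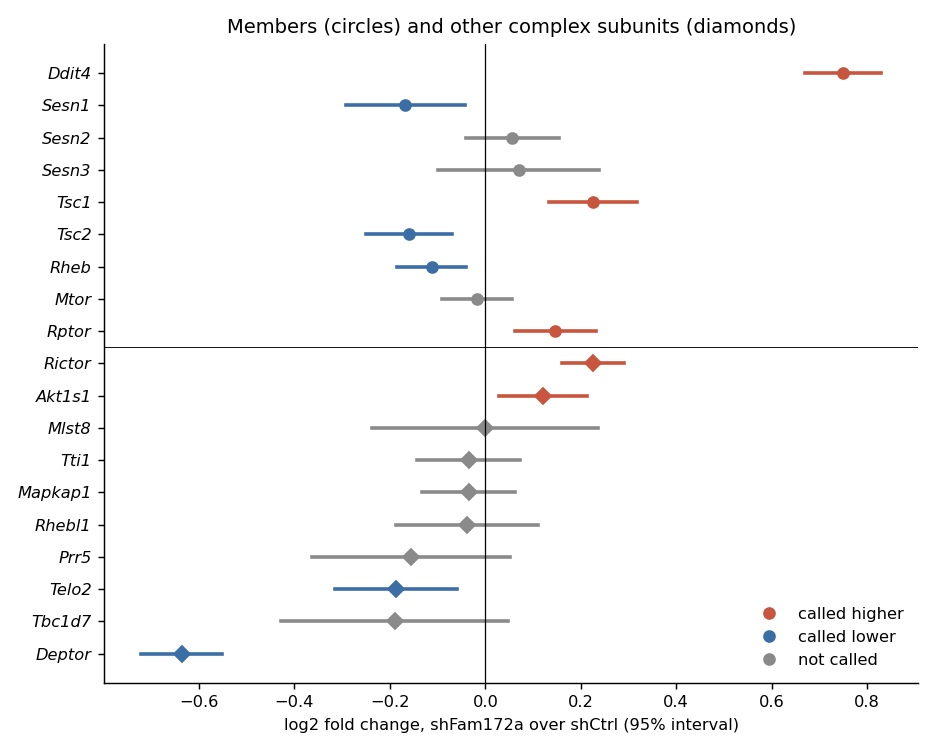
Log2 fold change of shFam172a over shCtrl (x axis) with its 95% interval for the 9 members tested (circles) and for 10 other subunits and partners of the complexes (diamonds). Colour gives the call at an adjusted p under 0.05. Ddit4 at 0.75 and Deptor at -0.64 lie apart from the other genes, which lie between -0.19 and 0.23.

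Levels of different genes were compared per kilobase of merged exons. In shCtrl, Ddit4 stood at 176 ± 3.07 RPKM, that is CPM per kilobase, far above Rheb at 18.3 ± 0.308. Sesn2 followed at 15.1 ± 0.402 and Mtor at 13.2 ± 0.284. Sesn1 was at 8.06 ± 0.110, Tsc2 at 7.52 ± 0.179, Rptor at 6.79 ± 0.420, Tsc1 at 5.13 ± 0.211 and Sesn3 at 1.25 ± 0.119 RPKM. The middle of this order depended on the length used. Per kilobase of the longest transcript, Mtor (15.6) and Sesn2 (15.1) changed places, Rptor (13.9) and Tsc2 (11.5) stood above Sesn1 (8.43), and Tsc1 was at 7.88. Ddit4 and Rheb at the top and Sesn3 at the bottom kept their places. The inducible inhibitor was therefore already the most abundant transcript of the 10 in control cells, and reached 297 ± 21.8 RPKM in shFam172a.

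Among other subunits of the mTOR complexes, Deptor stood out. It encodes a protein that binds and inhibits mTOR in both of its complexes. Its level was 126, 121 and 137 CPM in shCtrl and 84.8, 81.7 and 79.9 CPM in shFam172a. The lowest control library thus lay well above the highest knockdown library (log2 fold change -0.64 ± 0.042, adjusted p = 2.3e-15). There were 0.965, 0.897 and 1.002 Deptor counts per Mtor count in shCtrl and 0.624, 0.646 and 0.593 in shFam172a (exact permutation p = 0.10, the smallest possible, two-sided). So the transcripts of 2 inhibitors of the pathway, Ddit4 and Deptor, moved in opposite directions.

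Rictor, the scaffold of mTORC2, rose from 164 ± 4.30 to 192 ± 0.191 CPM (0.23 ± 0.032, adjusted p = 4.8e-07), and was at 0.14 (adjusted p = 2.4e-04) with the length and GC offsets. Akt1s1 (PRAS40, an inhibitor within mTORC1) was called higher at 0.12 ± 0.045 (adjusted p = 0.034), and Telo2, which helps to assemble mTOR, lower at -0.19 ± 0.063 (adjusted p = 0.019). The Akt1s1 call was lost in 7 of 16 other settings, among them without shCtrl replicate 1 or 3 or shFam172a replicate 2 (adjusted p = 0.11, 0.085 and 0.13). The Telo2 call was lost in 4, among them without shCtrl replicate 1 or 2 (adjusted p = 0.061 and 0.13) or shFam172a replicate 1 (adjusted p = 0.050). Mlst8, the subunit shared by both complexes, was at 8.47 ± 0.190 and 8.47 ± 0.854 CPM (adjusted p = 0.997). In all, 2 of 10 tested genes of this group were higher and 2 lower, close to the share among all genes. With DESeq2, and without shCtrl replicate 1, 2 of them were called in place of 4.

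**Figure D3:**
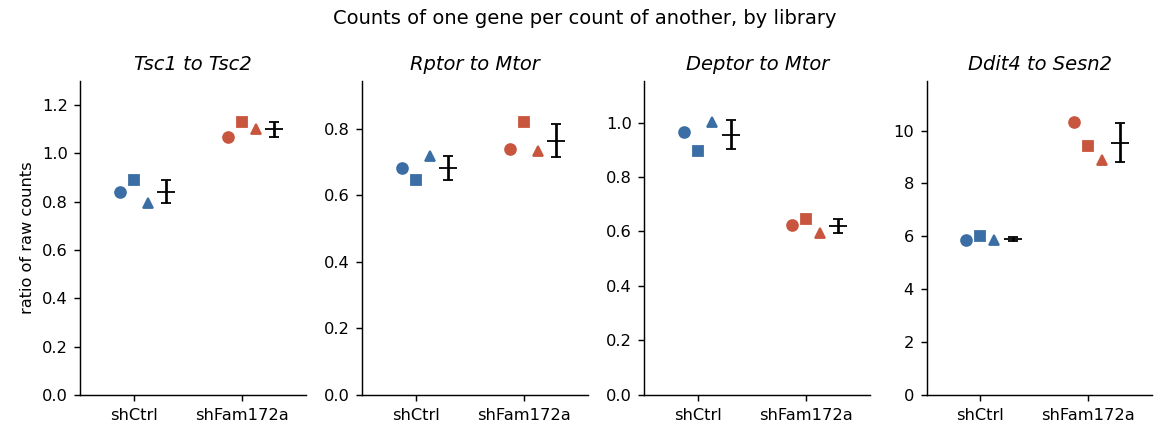
Raw counts of one gene per count of another (y axes, from 0) in each library, with the mean and SD beside the points. Tsc1 per Tsc2 is at 0.793 to 0.888 in shCtrl and at 1.07 to 1.13 in shFam172a, and Deptor per Mtor at 0.897 to 1.002 in shCtrl and at 0.593 to 0.646 in shFam172a.

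The ratio of Rptor to Mtor counts was 0.683, 0.647 and 0.717 in shCtrl and 0.739, 0.821 and 0.734 in shFam172a. The groups were separate by a narrow margin (exact permutation p = 0.10). Ddit4 had 5.85, 6.00 and 5.85 counts per Sesn2 count in shCtrl and 10.3, 9.42 and 8.89 in shFam172a, 1.61 times as many (exact permutation p = 0.10). Per Tsc2 count it had 4.44, 4.30 and 4.11 against 8.46, 7.97 and 7.68. Rictor to Rptor was the ratio whose groups overlapped, at 1.67 to 1.89 against 1.85 to 1.94 (exact permutation p = 0.20).

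Genes of amino acid sensing, on which sestrins act, were mostly not called. Of 27 tested genes for Rag GTPases, the Ragulator anchor, the GATOR and KICSTOR complexes and folliculin, 3 were higher and 2 lower, or 18.5% against 36.1% of all genes, and the median log2 fold change was 0.0091. DESeq2 and limma-voom each called 3 in place of 5. The smallest p values were those of Fnip1, a folliculin partner, at 0.19 ± 0.036 (adjusted p = 5.2e-05), and of Rragd, at 0.17 ± 0.035 (adjusted p = 2.0e-04). The GATOR1 genes that hold the Rag GTPases off were near their control level, with Depdc5 at -0.03 ± 0.048, Nprl2 at -0.0043 ± 0.11 and Nprl3 at -0.0042 ± 0.059 (adjusted p = 0.64, 0.98 and 0.97). These 3, and other genes named here beyond the members and those of smallest p, were chosen after their values were seen. Mios, a subunit of the GATOR2 complex that sestrins bind, was lower at -0.18 ± 0.046 (adjusted p = 0.0021).

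AMPK, the energy sensor that phosphorylates TSC2 and raptor, showed one larger difference. Its regulatory subunit gene Prkab2 was at 67.6, 63.3 and 60.3 CPM in shCtrl and at 84.2, 87.9 and 82.2 CPM in shFam172a (0.41 ± 0.046, adjusted p = 3.1e-09). Prkag1, another regulatory subunit, was lower (-0.19 ± 0.049, adjusted p = 0.0019). Of 11 tested genes for AMPK and its activator LKB1, 2 were higher and 2 lower, or 36.4% against 36.1% of all genes. The catalytic subunit Prkaa1 was at 0.04 ± 0.034 (adjusted p = 0.41). Prkaa2, the other catalytic subunit, did not pass the filter, with group means of 0.0850 and 0.0154 CPM.

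On the growth factor branch, 9 of 17 tested genes for insulin and IGF receptors, PI3K and AKT were higher and 0 lower by edgeR. That is 52.9% called, against 36.1% of all genes, with small differences (median log2 fold change 0.078). At an unadjusted p under 0.05, 1 gene was lower, and DESeq2 and limma-voom called 0 lower and 8 and 9 higher. Irs1, an adaptor of the insulin receptor, was at 0.25 ± 0.050 (adjusted p = 1.5e-04) and Pik3r3, a regulatory subunit of PI3K, at 0.23 ± 0.046 (adjusted p = 1.2e-04). With the length and GC offsets, 6 genes of this group were called and Irs1 was at 0.13 (adjusted p = 0.032).

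Of 22 genes on which mTORC1 acts or through which it works, 7 were higher and 2 lower (median log2 fold change 0.062). That is 40.9% called, near the 36.1% of all genes. Ulk1, the kinase that starts autophagy and is held off by mTORC1, was at 41.2, 42.5 and 38.5 CPM in shCtrl and at 67.8, 71.1 and 65.4 CPM in shFam172a. Its log2 fold change of 0.74 ± 0.052 (adjusted p = 1.7e-14) was close in size to that of Ddit4. Eif4ebp2, a repressor of cap-dependent translation, was at 75.8, 73.6 and 76.2 CPM in shCtrl and at 51.9, 50.6 and 58.3 CPM in shFam172a (-0.49 ± 0.050, adjusted p = 3.6e-10). Its homologue Eif4ebp1 was at 162 ± 1.28 and 166 ± 5.86 CPM (0.03 ± 0.034, adjusted p = 0.50), and the S6 kinase gene Rps6kb1 at 63.0 ± 1.57 and 64.3 ± 2.65 CPM (adjusted p = 0.68). The other S6 kinase gene, Rps6kb2, was called lower, at 20.3 ± 0.399 and 17.2 ± 0.919 CPM (-0.23 ± 0.078, adjusted p = 0.017). Eef2k, which slows elongation, and Pdcd4, which restrains the helicase eIF4A, were higher at 0.38 ± 0.049 and 0.35 ± 0.064 (adjusted p = 7.5e-08 and 3.5e-05).

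Ddit4 and the sestrins are each known as targets of several stress factors, whose other targets were read from the same fit. The lists of targets were chosen with earlier results of these data known. Which factor, if any, acted on Ddit4 or the sestrins here was not tested. Of 17 tested HIF targets, 16 were higher and 0 lower by edgeR, DESeq2 and limma-voom, and 0 were lower at an unadjusted p under 0.05. By edgeR that is 94.1% called, against 36.1% of all genes. The median log2 fold change of the HIF targets was 1.04, beside 0.75 for Ddit4. Pdk1, the pyruvate dehydrogenase kinase, was at 2.12 ± 0.062 and Plod2, a collagen lysyl hydroxylase, at 1.11 ± 0.032 (adjusted p = 3.5e-26 for both). Bnip3, a mitophagy receptor that also binds Rheb, was at 239, 197 and 200.5 CPM in shCtrl and at 670.4, 626 and 624 CPM in shFam172a (1.59 ± 0.077, adjusted p = 1.3e-05). Car9 was the HIF target not called, at 1.51 ± 0.281 and 1.56 ± 0.297 CPM.

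Targets of ATF4, the factor of the amino acid response, were mostly lower. Of 13 tested, 1 was higher and 9 lower, with a median of -0.14. That is 76.9% called, against 36.1% of all genes. Sesn2 and Ddit4 are themselves known ATF4 targets. Gdf15, a secreted stress factor, was at -0.60 ± 0.060 and Mthfd2, a mitochondrial folate enzyme, at -0.33 ± 0.029 (adjusted p = 3.0e-10 and 9.1e-12). Of 11 tested p53 targets, 5 were higher and 5 lower (median 0.12), or 90.9% against 36.1% of all genes. Btg2 was at 0.84 ± 0.064 and Ccng1 at -0.64 ± 0.053 (adjusted p = 2.8e-13 and 1.8e-12). The part of ATF4 and p53 in the levels of Ddit4 and the sestrins was not tested.

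The genes of the stress factors themselves differed less than Ddit4. Of 10 tested, 2 were higher and 6 lower, or 80% against 36.1% of all genes, and their median log2 fold change was -0.12. The number called was 5 in place of 8 with DESeq2, without shCtrl replicate 1 and without shCtrl replicate 3. Foxo3 was at 31.0, 28.0 and 31.0 CPM in shCtrl and at 43.6, 44.7 and 48.9 CPM in shFam172a (0.61 ± 0.061, adjusted p = 2.6e-10). Atf4 was lower at -0.18 ± 0.026 (adjusted p = 5.0e-07), as were Trp53 at -0.24 ± 0.043 (adjusted p = 2.7e-05) and Hif1a at -0.11 ± 0.031 (adjusted p = 0.0046). Epas1, which encodes HIF-2 alpha, and Foxo1 were under the filter, with group means of no more than 0.0604 CPM.

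**Figure D4:**
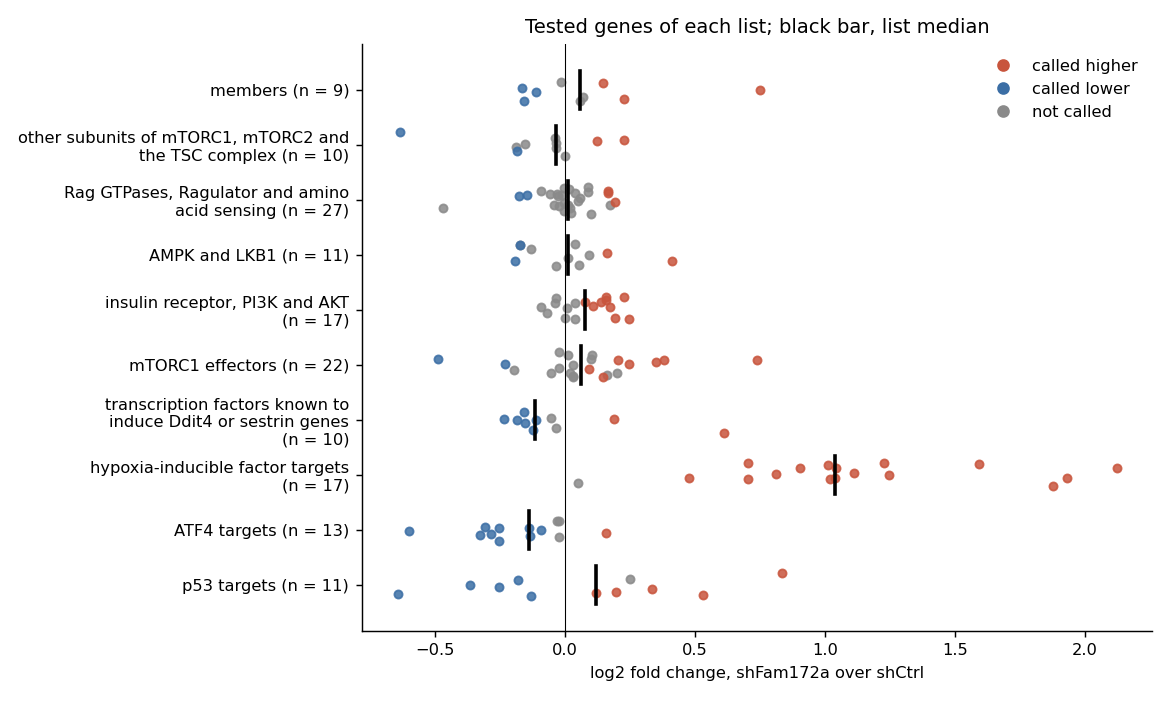
Log2 fold change of shFam172a over shCtrl (x axis) for every tested gene of the members and of 9 lists around mTORC1, with the black bar at each list's median. HIF targets have a median of 1.04 and ATF4 targets one of -0.14, while the members spread from -0.17 to 0.75.

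The genes whose profile over the 6 libraries was most like that of Ddit4 were sought among 9391 genes with a mean of at least 10 CPM. Likeness was the distance between log2 CPM values centred on each gene's mean. The nearest 5 were Pkm at a distance of 0.0841, Aldoa at 0.0887, Ldha at 0.103, Hk2 at 0.113 and Eno1b at 0.122. Their log2 fold changes were 0.77, 0.71, 0.70, 0.76 and 0.73, beside 0.75 for Ddit4. With 6 libraries in 2 groups, the measure mostly reads the size of the group difference.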

How the data were processed

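RNA of 6 Neuro2a samples was sequenced as paired-end reads from VAHTS Universal V6 libraries, per the labels' protocols. The authors deposited raw counts per gene symbol. The submitters' processing notes name HISAT2 2.0.5, HTSeq and mm10. Annotation and strand setting were not given in the sources used here. Counts in the tables of single samples were identical. The 5 rows that name no gene were left out. They held 34.0% of all counts in shCtrl and 36.6% in shFam172a, as means. After filterByExpr (12820 of 18128 genes with any count) and TMM scaling, a quasi-likelihood model with a group term was fitted in edgeR 4.0.16 (robust glmQLFit, glmQLFTest; R 4.3.3). Calls were made at 0.05 on two-sided p-values adjusted by Benjamini and Hochberg. Positive fold changes mean higher in shFam172a. The SE is the size of the log2 fold change over the square root of F. Levels are mean ± SD (n = 3) and fold changes ± SE. Lengths and positions are from GENCODE M21 (GRCm38), which matched 95.5% of 24421 symbols and need not be the authors' annotation. The test was checked on simulated data, where it recovered 17 of 50 genes changed 1.1-fold and 44 of 50 changed 1.25-fold. At 1.5-fold it recovered 49 of 50 and at 2-fold 50 of 50, and it called 14 of 12620 unchanged genes. A gene not called may thus still differ by about 1.1-fold, and one with few counts by more. Car9, with 14 to 43 counts per library, had a 95% interval of -0.50 to 0.60 for its log2 fold change. For Gatsl3, with 21 to 42 counts, it was -0.99 to 0.05.

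All members, the complex subunits called and the 2 called genes of smallest p in each other list were named by rule. The members and lists were chosen with earlier results of these data known. Alternatives were DESeq2 1.42.0, limma-voom 3.58.1, 3 scalings, 2 filters, a replicate block, thinning, length and GC offsets, and each library left out.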

Additional observations from a re-analysis of the deposited data

Results flagged for a closer look

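Read pairs outside the genes stood higher in the knockdown libraries. The share of pairs in no gene was 17.4% in shFam172a and 16.5% in shCtrl as means, and every shFam172a library (17.2% or more) lay above every shCtrl library (16.6% or less). Pairs with several alignments made up 10.3% and 9.64%, again without overlap. Their part in the values of the mTORC1 genes was not tested.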

How the results depend on the processing

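Of 35 genes followed by name over 16 alternatives, 27 kept their call and direction in all of them. Among these were Ddit4 (0.69 to 0.79), Tsc1 (0.14 to 0.26), Tsc2 (-0.23 to -0.14) and Deptor (-0.71 to -0.59). The other 8 were the members Sesn1, Sesn2, Sesn3, Rheb, Mtor and Rptor, with Telo2 and Akt1s1. Many of the 35 were named for a small p or for a profile like that of Ddit4. The share that kept its call therefore does not describe the members. Signs turned for genes that were not called: Sesn3 was at -0.014 with thinned libraries and at -0.023 with length and GC offsets, Sesn2 at -0.012 with those offsets, and Mtor at 0.016 without shFam172a replicate 2, within a range of -0.035 to 0.016 as each library was left out. The cause was not tested. With each library left out in turn, 3 to 6 members, 65 to 74 pathway genes and 3681 to 4320 of all genes were called. Libraries of the same replicate number showed no shared deviation from their group means. Over 5000 genes, same-numbered deviations correlated at -0.05, -0.13 and -0.11, and no library correlated best with its own number. Such correlations cannot tell if same-numbered samples were infected or prepared together. The replicate block called 6 members, 72 pathway genes and 4468 genes in all, and changed no member's call. DESeq2 called 3561 genes and 5 members. Of the members tested, Sesn3 had the fewest counts (198 to 486 per library) and the widest SE.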
